A study of Mus musculus with 8 samples.

Results

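Adult neurogenesis was followed in bulk hippocampal RNA through 9 marker genes, Mki67, Top2a, Eomes, Neurod1, Sox11, Sox4, Dcx, Igfbpl1 and Draxin, taken by symbol from a table of 24527 genes. All 9 were present and all 9 passed the filter on low counts that left 15434 genes for testing. The animals were wild-type C57BL/6J males of 20 weeks. The BPA group (n = 4) was exposed through the feed to bisphenol A (BPA, a building block of plastics with hormone-like activity) at 50 mg per kg, and the control group (n = 4) at 0 mg per kg. Exposure spanned gestation and lactation, and both feeds were low in phytoestrogens. From weaning on postnatal day 21 every animal ate control feed, so that sampling fell long after the exposure. The RNA came from dissected hippocampal tissue with no separation of subregions named in the labels, and the libraries were made from its polyadenylated fraction.

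In the adult dentate gyrus, radial glia-like stem cells divide to give intermediate progenitors, which give neuroblasts, which leave the cell cycle, extend processes and mature into granule neurons. Each stage has its own transcripts. Dividing cells carry Mki67, which encodes a protein that coats mitotic chromosomes, and Top2a, the topoisomerase that untangles replicated DNA. Both mark any dividing cell, oligodendrocyte precursors and microglia included. Eomes (also called Tbr2) is the transcription factor of intermediate progenitors. Neurod1 is a transcription factor needed for granule neurons to differentiate and survive, and Sox11 and Sox4 are related transcription factors that act early in neuronal differentiation. Dcx encodes doublecortin, a microtubule-binding protein of migrating neuroblasts, Igfbpl1 an insulin-like growth factor binding protein-like protein found in neuroblasts, and Draxin a secreted axon guidance protein.

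None of the 9 markers differed between BPA and control animals beyond the spread between animals. In every marker the BPA and control ranges overlapped. Estimated folds ran from 0.870 for Igfbpl1 to 1.10 for Mki67, with 4 markers above 1 and 5 below. The proliferation pair split, Mki67 estimated higher and Top2a lower in BPA animals, and so did the immature neuron markers, 3 on each side. Summed over markers, reads of the proliferation pair stood at 6.32 ± 0.715% of those of the immature neuron markers in BPA animals and 6.17 ± 0.950% in controls (mean ± SD, n = 4 each). Values are CPM, read counts scaled to a common library total, with normalization by the trimmed mean of M-values (TMM), and fold changes come from the quasi-likelihood test of edgeR over all 15434 genes. In bulk tissue, fewer cells of a type and less RNA per cell cannot be told apart.

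Of the 9 markers, 0 passed an adjusted p of 0.05 with edgeR, and 0 had an unadjusted p under 0.05; the smallest was 0.180, for Neurod1. DESeq2 and limma-voom likewise called 0 of the 9. Over all 15434 genes edgeR called 0% of all genes tested, 4.52% had an unadjusted p under 0.05 (2.22% on the higher side in BPA animals, 2.3% on the lower), and in 2.79% the BPA and control ranges did not overlap, against 0 of the 9 markers. Fold intervals at 95% stayed within 1.5-fold either way for 7 of the 9, against 85.4% of all genes tested; the exceptions were Eomes and Igfbpl1.

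Libraries were deeper in BPA animals, at 43.1 to 54.01 M counts, than in controls, at 27.1 to 40.8 M (exact permutation test, two-sided, p = 0.0286, which is the lowest possible with 4 against 4), so exposure and depth cannot be told apart by group. Depth mattered for the scarce markers, since 1 CPM stood for 26.2 to 53.6 reads. The 95% exact Poisson intervals shown with the points cover counting error only. Genes of tissue that adjoins the hippocampus varied between libraries. Choroid plexus genes summed to 3165 CPM in control 2, 848 CPM in BPA 3 and 170 to 366 CPM in the other 6. Control 2 was also highest for ependymal genes, at 42.5 CPM against 17.4 to 27.7 CPM elsewhere. Meningeal and fibroblast genes were highest in BPA 3, at 632 CPM, then control 2 at 385 CPM and control 1 at 356 CPM. In the remaining libraries they summed to 151 to 178 CPM, and their part in the marker values was not tested.

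Sequences before the annotated starts of 4 markers are shown because they stand on the 2 sides of the comparison, Mki67 and Top2a for division and Sox11 and Dcx for immature neurons. They come from RefSeq on GRCm38.p6, read 5′ to 3′ on the gene's strand and leave out annotated exons. The Dcx stretch is therefore shorter, at 158 bases, and leaves out the bases nearest the start used. Dcx has 2 annotated starts, and its matches were counted before the more upstream one. In the first 2, capitals mark CCAAT (or ATTGG on the other strand) and the cell cycle element known as CHR, searched as TTTGAA or TTCGAA on both strands. In the last 2, capitals also mark the E-box CANNTG, the core bound by Neurod1 and related factors.
Mki67 (minus strand, chr7:135716380-135716629): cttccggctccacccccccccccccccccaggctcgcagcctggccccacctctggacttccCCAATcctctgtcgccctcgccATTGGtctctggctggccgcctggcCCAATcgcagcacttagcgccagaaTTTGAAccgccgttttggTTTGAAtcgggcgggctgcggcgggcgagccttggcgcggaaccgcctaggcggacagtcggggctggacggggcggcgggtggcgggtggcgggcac
Top2a (minus strand, chr11:99024190-99024439): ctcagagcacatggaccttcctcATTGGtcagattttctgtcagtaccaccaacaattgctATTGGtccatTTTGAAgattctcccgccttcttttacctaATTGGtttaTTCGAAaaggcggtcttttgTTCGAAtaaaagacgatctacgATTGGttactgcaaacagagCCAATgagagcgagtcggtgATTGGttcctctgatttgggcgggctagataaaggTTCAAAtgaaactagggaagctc
Sox11 (minus strand, chr12:27342719-27342968): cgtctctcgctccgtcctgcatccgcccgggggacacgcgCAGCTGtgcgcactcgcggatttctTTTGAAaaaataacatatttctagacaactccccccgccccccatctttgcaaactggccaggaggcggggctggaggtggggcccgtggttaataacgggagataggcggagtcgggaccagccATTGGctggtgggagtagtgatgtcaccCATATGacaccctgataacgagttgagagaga
Dcx (minus strand, chrX:143933312-143933469): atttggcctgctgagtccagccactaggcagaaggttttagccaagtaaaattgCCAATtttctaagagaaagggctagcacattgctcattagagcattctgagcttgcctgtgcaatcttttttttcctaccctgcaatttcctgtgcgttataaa

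In the 250 bases before the start, Top2a held 6 CCAAT and 4 CHR matches and Mki67 held 3 and 2. Of 32851 promoters of the same length, 33.8% held at least 1 CCAAT, 2.79% held 3 or more and 0.213% held 5 or more, while 17.1% held at least 1 CHR match and 0.219% held 3 or more. Sox11 had 1 of each, and Dcx had 1 CCAAT and no CHR match. Eomes had 2 CCAAT, and Sox4 had 4. E-boxes, present in 66.2% of promoters, numbered 3 in Top2a, 2 in Sox11, 1 each in Neurod1, Sox4 and Draxin, and 0 in Mki67, Eomes and Dcx. The E-box of Top2a nearest the start overlapped a CHR match. The narrower E-box CAGATG, present in 14.4% of promoters and counted within CANNTG, was in none of the 8 markers with a sequence. AACAAT, a site for Sox factors present in 9.42%, occurred once, in Top2a, where it overlapped an E-box. These are matches of letters, and Igfbpl1 was not covered.

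**Figure D1:**
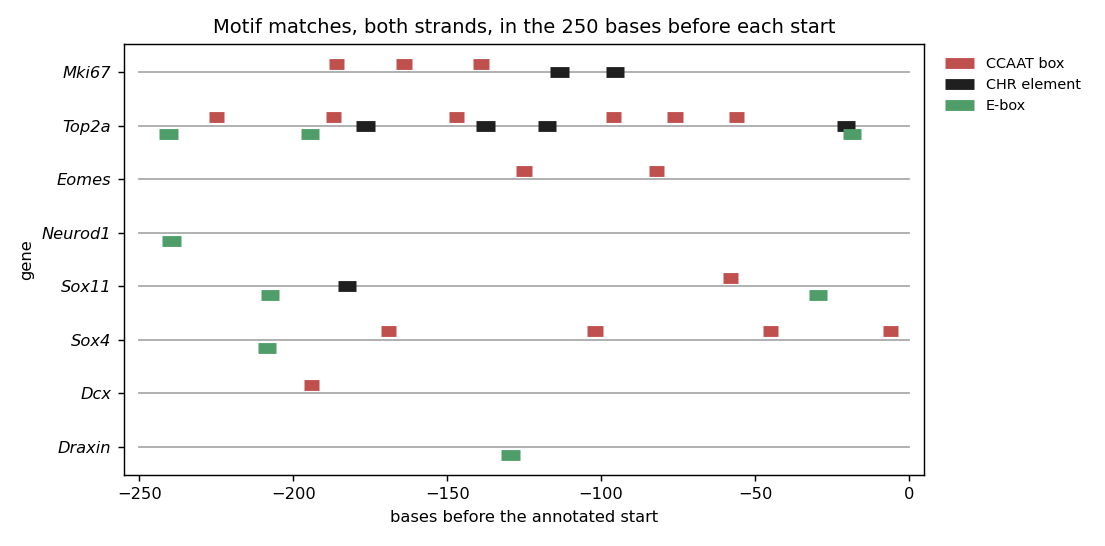
Position of CCAAT boxes (red), CHR elements (black) and E-boxes (green) in the 250 bases before the annotated start of 8 markers, both strands, with distance from the start on the horizontal axis. Top2a carries 6 CCAAT and 4 CHR matches and Mki67 3 and 2, while Dcx carries a single CCAAT and Neurod1 and Draxin a single E-box.

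Markers of division came first. Mki67 (chromosome 7, 135689784 to 135716361, minus strand, GENCODE M21 on mm10) was counted 122 to 267 times per library. It stood at 4.74, 4.39, 4.93 and 6.15 CPM in BPA animals 1 to 4, against 3.85, 5.22, 4.65 and 4.65 CPM in controls 1 to 4. BPA 4 was the highest of the 8 and control 1 the lowest, and the other 6 were mixed. The means were 5.05 ± 0.767 CPM in BPA animals and 4.59 ± 0.562 CPM in controls, a log2 fold change of 0.14 ± 0.13 (SE) and a fold of 1.10 (95% interval 0.908 to 1.33; edgeR, adjusted p = 0.957). The log2 fold change was 0.030 without BPA replicate 4, and adding log2 depth as a covariate gave 0.33.

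Top2a (chromosome 11, 98992943 to 99024189, minus strand), counted 53 to 110 times, had 1.59, 2.05, 1.82 and 2.14 CPM in BPA animals, against 1.58, 2.32, 2.32 and 2.02 CPM in controls. BPA 1 and control 1 shared the low end and controls 2 and 3 the high end. The log2 fold change was -0.11 ± 0.16 and the fold 0.926, with a 95% interval of 0.728 to 1.18 (edgeR, adjusted p = 0.962). Mki67 counts were 2.14 to 2.99 times those of Top2a in BPA libraries and 2.00 to 2.44 times in controls.

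Eomes (chromosome 9, 118478212 to 118486132, plus strand) was the scarcest marker, with 6 to 23 reads per library and 102 in all. It had 0.268, 0.243, 0.300 and 0.438 CPM in BPA animals, against 0.148, 0.613, 0.258 and 0.305 CPM in controls. Control 2 was highest and control 1 lowest, so that the 4 controls enclosed the 4 BPA animals. The log2 fold change was -0.10 ± 0.40, with a 95% interval of the fold of 0.512 to 1.69 (edgeR, adjusted p = 0.981), and without control replicate 2 it was 0.44. Among controls the coefficient of variation of Eomes was 60.1%, where counting alone gives 40.8% at 6 reads and 20.9% at 23. Natural killer and T cells can also express Eomes. The 9 marker genes of these cells in the table summed to 0.0187 to 0.346 CPM in BPA libraries and 0.0968 to 0.272 CPM in controls, and none passed the filter on low counts. In BPA 3 and control 1 that sum exceeded the level of Eomes, and the part of these cells in the Eomes values was not tested.

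Among immature neuron markers, Neurod1, Sox11, Sox4 and Dcx had 236 to 2391 reads per library. Neurod1 (chromosome 2, 79452521 to 79456751, minus strand) had 42.1, 44.6, 40.8 and 41.4 CPM in BPA animals, against 37.5, 38.7, 44.9 and 38.0 CPM in controls. Each BPA animal lay above controls 1, 2 and 4, and control 3 lay above every BPA animal. The means were 42.2 ± 1.70 CPM in BPA animals and 39.8 ± 3.45 CPM in controls, a log2 fold change of 0.087 ± 0.061 and a fold of 1.06 (95% interval 0.969 to 1.16; edgeR, adjusted p = 0.955). Without control replicate 3 the log2 fold change was 0.15, with an unadjusted p of 0.0112 and an adjusted p of 0.629 in edgeR.

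Sox11 (chromosome 12, 27334264 to 27342574, minus strand) had 37.1, 37.9, 35.9 and 41.8 CPM in BPA animals, against 36.8, 34.5, 43.0 and 34.3 CPM in controls. Control 3 and BPA 4 were the highest. Its log2 fold change was 0.040 ± 0.074 and its fold 1.03 (95% interval 0.920 to 1.15; edgeR, adjusted p = 0.966), and leaving out BPA replicate 4 gave a log2 fold change of -0.0058, leaving out control replicate 3 one of 0.12.

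Sox4 (chromosome 13, 28948919 to 28953713, minus strand) had 8.36, 8.34, 9.27 and 9.52 CPM in BPA animals, against 9.96, 8.95, 9.78 and 8.99 CPM in controls. BPA 1 and BPA 2 were the lowest of the 8, and BPA 3 and BPA 4 lay among the controls. Its log2 fold change was -0.089 ± 0.075 and its fold 0.940 (95% interval 0.840 to 1.05; edgeR, adjusted p = 0.957). Exons of a long noncoding RNA on the opposite strand, Gm26735, cover 54.6% of the exon bases of Sox4, which leaves its counts uncertain, as no source used here says whether reads were assigned by strand. The same holds for Neurod1 over 5.64% of its exon bases (Gm26755) and for Eomes over 3.20% (Gm33460).

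Dcx (chromosome X, 143855842 to 143933311, minus strand), the marker most often used to follow newborn neurons, was counted 564 to 1068 times. It had 17.7, 19.9, 20.5 and 18.4 CPM in BPA animals, against 21.9, 18.5, 19.5 and 21.5 CPM in controls. Controls 1 and 4 were the highest and BPA 1 and BPA 4 the lowest, with the other 4 between them. The means were 19.1 ± 1.30 CPM in BPA animals and 20.3 ± 1.60 CPM in controls, a log2 fold change of -0.088 ± 0.070 and a fold of 0.941 (95% interval 0.847 to 1.04; edgeR, adjusted p = 0.957). With control 2 and BPA 3 left out together, the libraries highest in choroid plexus genes, the log2 fold change was -0.17, with an unadjusted p of 0.0374 and an adjusted p of 0.841 in edgeR.

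Igfbpl1 (chromosome 4, 45809468 to 45826923, minus strand) had 15 to 42 reads per library, or 0.626, 0.467, 0.599 and 0.945 CPM in BPA animals, against 0.469, 1.12, 0.839 and 0.572 CPM in controls. Control 2 was highest, and BPA 2 and control 1 were lowest. The log2 fold change was -0.20 ± 0.30 and the 95% interval of the fold 0.554 to 1.36 (edgeR, adjusted p = 0.962), and without control replicate 2 the log2 fold change was 0.077.

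Draxin (chromosome 4, 148098437 to 148130698, minus strand) had 17 to 42 reads, or 0.716, 0.784, 0.876 and 0.807 CPM in BPA animals, against 0.642, 1.07, 0.678 and 0.648 CPM in controls. All 4 BPA animals lay above controls 1, 3 and 4, and control 2 lay above them all. The log2 fold change was 0.056 ± 0.21 and the 95% interval of the fold 0.759 to 1.43 (edgeR, adjusted p = 0.981), and without control replicate 2 the log2 fold change was 0.28. Eomes, Igfbpl1 and Draxin, the 3 markers under 1 CPM in both group means, were all highest in control 2, the library highest in choroid plexus and ependymal genes, and the part of those tissues in these values was not tested.

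**Figure D2:**
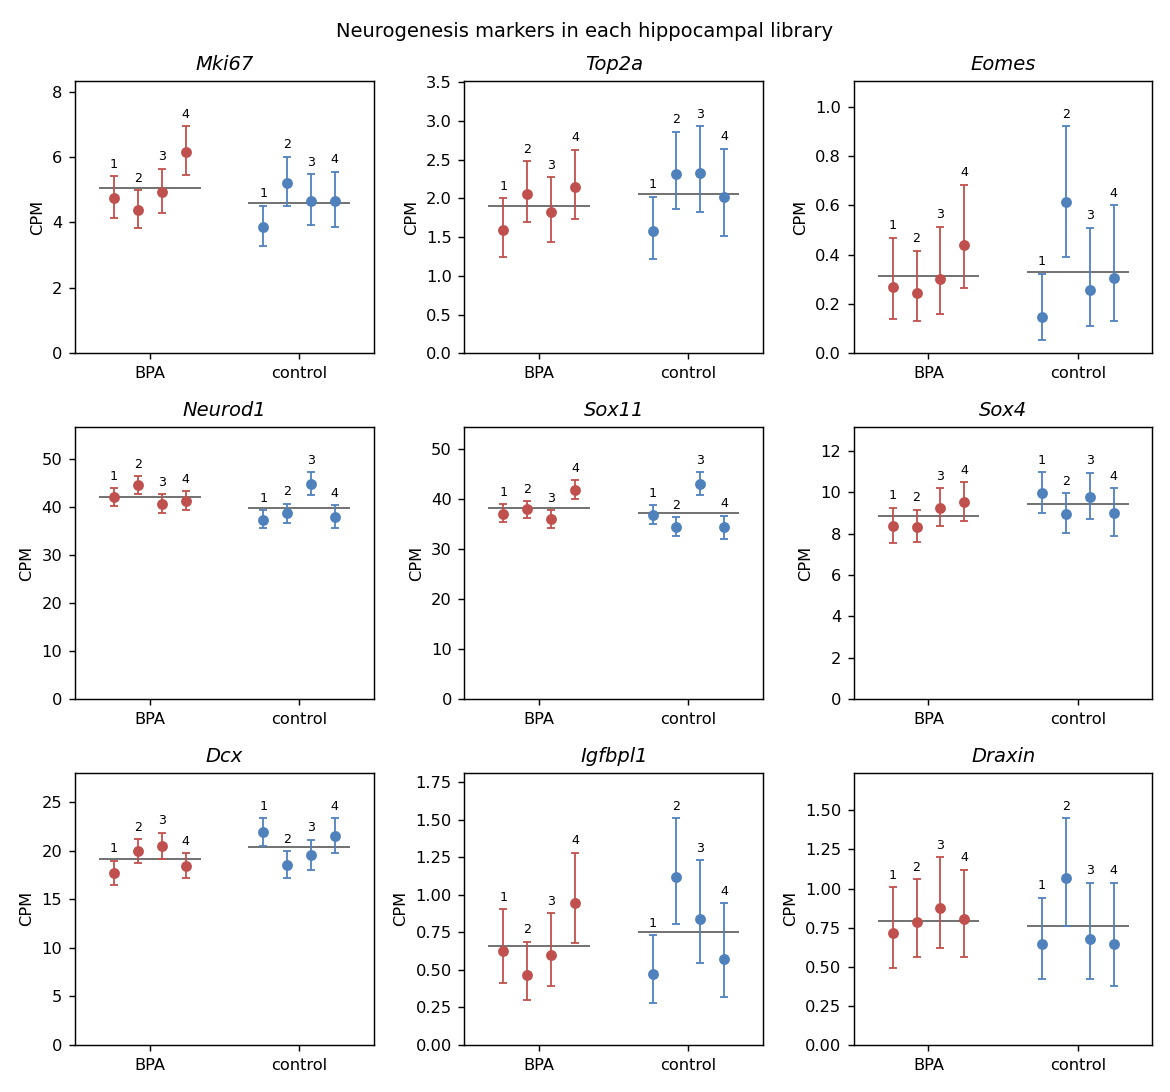
CPM with TMM scaling of each marker in each library (points, numbered by replicate; BPA red, control blue), with exact 95% Poisson intervals of the counts as bars and group means as lines; every vertical axis starts at 0. The BPA and control ranges overlap in all 9 panels, and Eomes, Igfbpl1 and Draxin are highest in control 2.

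Per kilobase of exon, the markers spanned a wide range of levels. Neurod1 was highest, at 15.5 ± 0.623 CPM per kb in BPA animals and 14.6 ± 1.27 CPM per kb in controls (mean ± SD, n = 4 each). Sox11 followed at 4.59 ± 0.308 in BPA animals and 4.47 ± 0.488 in controls, then Dcx at 2.07 ± 0.140 in BPA animals and 2.20 ± 0.173 in controls, all in CPM per kb. Dcx and Sox4, the next in order at 1.85 ± 0.127 CPM per kb in BPA animals and 1.96 ± 0.109 CPM per kb in controls, overlapped over the 8 libraries. A gap then separated these 4 from Mki67, at 0.502 ± 0.0763 CPM per kb in BPA animals and 0.457 ± 0.0559 CPM per kb in controls. Below it each marker overlapped its neighbour in the order Top2a, Igfbpl1, Draxin and Eomes, the last at 0.0845 ± 0.0236 CPM per kb in BPA animals and 0.0897 ± 0.0539 CPM per kb in controls.

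Proliferation was then set against immature neurons within each library. Mki67 and Top2a together gave 6.33, 6.44, 6.75 and 8.30 CPM in BPA animals 1 to 4, against 5.44, 7.54, 6.97 and 6.67 CPM in controls 1 to 4. The 6 immature neuron markers together gave 107, 112, 108 and 113 CPM in BPA animals, against 107, 103, 119 and 104 CPM in controls. As a share of the immature neuron sum in reads, proliferation stood at 5.94, 5.75, 6.26 and 7.35% in BPA animals, against 5.07, 7.33, 5.88 and 6.41% in controls. BPA 4 and control 2 reached nearly the same high share and control 1 was lowest, so the control range enclosed 3 of the 4 BPA animals. The log2 ratio was 0.041 higher in BPA animals, and its sign depended on single animals: it was -0.049 without control replicate 1 and 0.13 without control replicate 2. Per kilobase of exon the share was 3.55 ± 0.412% in BPA animals and 3.61 ± 0.515% in controls, and the log2 ratio -0.018, so that scale turned the sign as well. Mki67 reads per Dcx read were 0.268, 0.220, 0.241 and 0.334 in BPA animals, against 0.176, 0.282, 0.238 and 0.216 in controls. Most of the immature neuron sum was Neurod1 and Sox11, so the share follows these genes more than Dcx. Which cells carried them was not tested, so the share is no count of dividing cells per newborn neuron. The other 4 summed to 27.4 to 31.2 CPM in BPA animals and 29.7 to 32.9 CPM in controls.

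**Figure D3:**
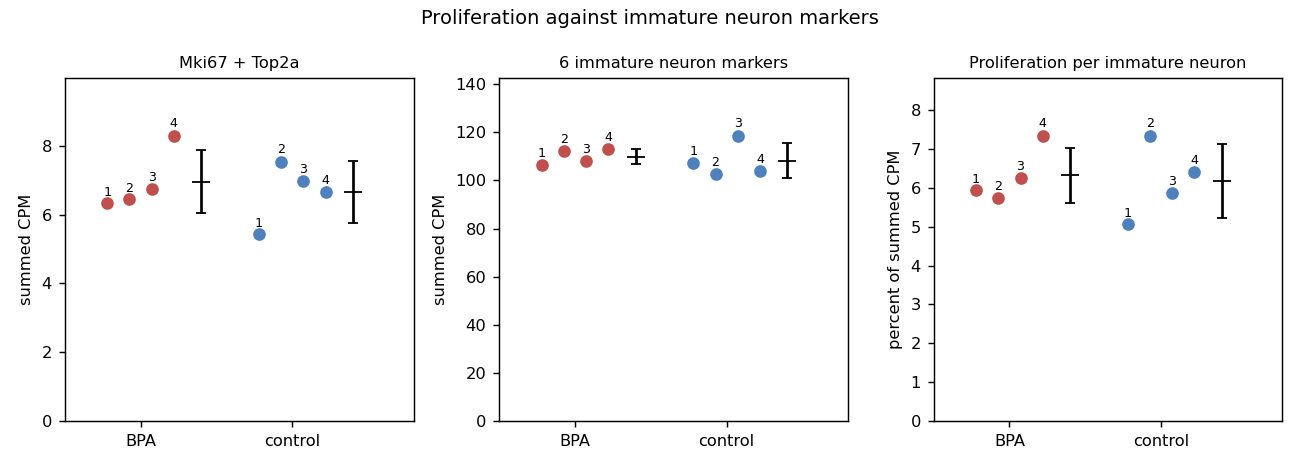
Summed CPM of Mki67 and Top2a (left), summed CPM of the 6 immature neuron markers (middle) and the first as a percentage of the second (right) in each library, numbered by replicate, with mean ± SD beside each group (n = 4). The percentage lies between 5.75 and 7.35 in BPA libraries and between 5.07 and 7.33 in control libraries.

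The markers did not order the animals in 1 common way. For each of the 28 pairs of libraries, it was asked whether 2 genes had the same library higher. Mki67 and Eomes were ordered alike in 25 of the 28 pairs, Neurod1 and Sox11 in 23, and Mki67 was ordered alike with Igfbpl1 and with Draxin in 22 each. Mki67 and Top2a were alike in 17. Dcx went against several markers, sharing the order in 7 of the 28 pairs each with Mki67, Neurod1 and Igfbpl1, and its best match among the markers was Sox4, at 18. The 16 pairs of markers of the same role had a median of 14.5 and the 20 pairs of different roles a median of 16, where all genes had a median of 14 against Dcx and against Mki67. All genes share the libraries' depth and composition, so these counts are descriptions only. Control 1 was the lowest library for 5 of the 9 markers and the highest for Dcx and Sox4. Controls 1 and 4 were also lowest for mature granule neuron genes, at 868 and 954 CPM, where the other libraries had 1066 to 1185 CPM. Neurod1 was lowest and Dcx highest in these controls. The part of dentate tissue in the marker values was not tested.

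**Figure D4:**
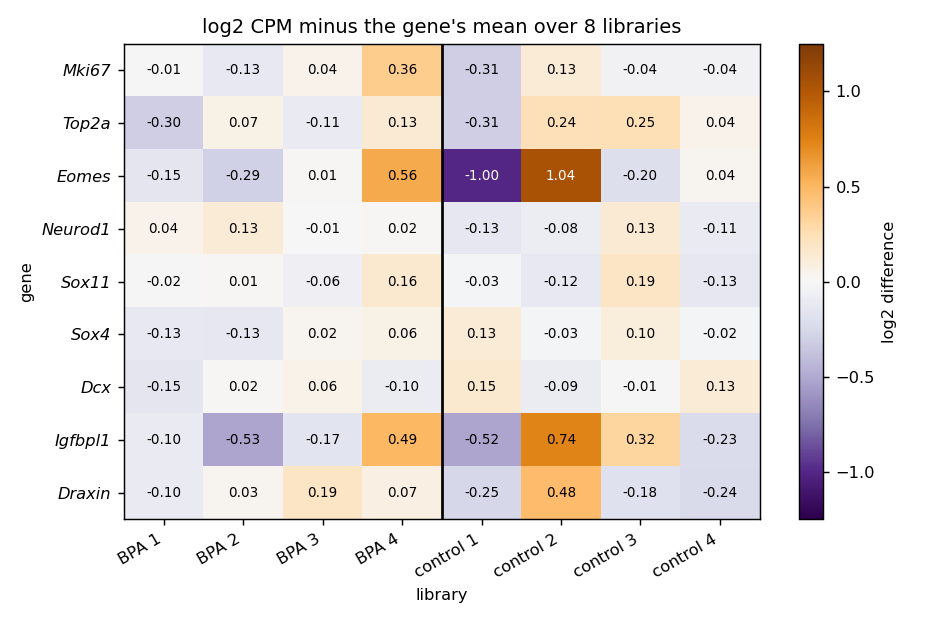
Log2 CPM of each marker in each library minus the marker's mean over the 8 libraries, with BPA libraries left of the line and control libraries right of it. Eomes reaches 1.04 in control 2, its highest library, while the farthest of Neurod1, Sox11, Sox4 and Dcx from its mean is Sox11 in control 3, at 0.19.

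Among the 13585 other genes of at least 1 CPM, those ordered most like Dcx were Scn1a, a voltage-gated sodium channel subunit, in 27 of 28 pairs, and Lrrc8b, Scn4b, Lrrc8c and Epha5 in 26 each. Another 5 genes tied with Dcx at 26 pairs, the ones named having the higher Pearson r. For Mki67 the genes named by the same rule were Rbbp9 in 27 pairs and Myadml2, Slc25a15, Odc1 and Tgm4 in 26 each, with another 4 tied at 26. In all, 0.0736% of these genes reached 26 pairs for Dcx and 0.0662% for Mki67.

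The wider cell cycle programme held no call either. Of 42 further cell cycle genes, 37 could be tested, 19 estimated higher and 18 lower in BPA animals, with a median log2 fold change of 0.011 against 4.9e-05 over all genes tested, and 0 were called. Cdk1, Ccnb1, Aurkb, Bub1 and Tk1 were too scarce to test, with 38 to 72 reads over the 8 libraries. Mcm7, a subunit of the replicative helicase, had 10.6, 10.2, 10.7 and 9.98 CPM in BPA animals, against 11.3, 11.2, 11.2 and 12.6 CPM in controls. Its log2 fold change was -0.15 ± 0.066 (edgeR, unadjusted p = 0.0369, adjusted p = 0.955). It was the 1 gene of the 37 tested whose ranges did not overlap, where the share over all genes tested was 2.79%. Bub1b, a spindle checkpoint kinase, averaged 1.44 ± 0.199 CPM in BPA animals and 1.76 ± 0.234 CPM in controls (-0.29 ± 0.16).

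Of 21 tested genes of radial glia-like stem cells, 8 were estimated higher and 13 lower in BPA animals, with a median of -0.0074 and 0 called. The list summed to 545 to 581 CPM in BPA libraries and 550 to 588 CPM in controls. Ednrb, Sox9 and Sox2 averaged 68.0, 62.7 and 61.6 CPM in BPA animals, against 68.2, 65.7 and 61.8 CPM in controls. Which cells carried these genes was not tested, so the list is no measure of the stem cell pool. Hes5, a Notch target that holds stem cells undifferentiated, had 2.46, 1.85, 2.31 and 0.807 CPM in BPA animals, against 3.51, 4.26, 1.61 and 3.01 CPM in controls, a log2 fold change of -0.75 ± 0.32 (edgeR, unadjusted p = 0.0353, adjusted p = 0.955). BPA 4 was the lowest library and control 3 lay below 3 BPA animals. Notch1, a Notch receptor, averaged 28.3 ± 1.94 CPM in BPA animals and 31.4 ± 2.73 CPM in controls (-0.15 ± 0.070; edgeR, unadjusted p = 0.0479, adjusted p = 0.955). Notch2 and Hes1 of the same list had log2 fold changes of -0.022 ± 0.083 and -0.039 ± 0.090.

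Of 30 other genes of neuroblasts and immature neurons, 17 were estimated higher and 13 lower, with a median of 0.020 and 0 called. The list summed to 3596 to 3636 CPM in BPA libraries and 3386 to 3612 CPM in controls, far above Dcx. Dclk1 alone averaged 773 CPM in BPA animals and 763 CPM in controls. Which cells carried these genes was not tested, so the list is no measure of newborn neurons. Calb2, which encodes calretinin and is expressed by immature granule neurons and by interneurons, averaged 32.5 ± 1.38 CPM in BPA animals and 29.0 ± 2.28 CPM in controls (0.17 ± 0.060; edgeR, unadjusted p = 0.0167, adjusted p = 0.955). Nnat, an imprinted gene of developing neurons, averaged 392 ± 54.1 CPM in BPA animals and 340 ± 28.5 CPM in controls (0.21 ± 0.091; edgeR, unadjusted p = 0.0400, adjusted p = 0.955). In both, BPA and control ranges overlapped. Ncam1, a neural cell adhesion molecule, was the 1 gene of the 30 whose ranges did not overlap, and is named for that. Over all genes tested the share without overlap was 2.79%. Ncam1 averaged 365 ± 7.71 CPM in BPA animals and 352 ± 1.89 CPM in controls (0.056 ± 0.039; edgeR, adjusted p = 0.955). Neurod4, a relative of Neurod1 named here after its values were seen, had the lowest estimate of the list, with control 2 apart from the other libraries: it stood at 0.161 to 0.415 CPM in BPA animals, against 1.57 CPM in control 2 and 0.291 to 0.305 CPM in the other 3 controls (log2 fold change -1.14 ± 0.56; edgeR, adjusted p = 0.955).

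Mature granule neuron genes leaned 1 way without any call: 13 of 14 were estimated higher in BPA animals, with a median log2 fold change of 0.12, where 50% of all genes tested were higher. Npnt averaged 29.05 ± 2.04 CPM in BPA animals and 25.2 ± 3.92 CPM in controls (0.20 ± 0.094), and Calb1, a calcium buffer of mature granule neurons, 141 ± 10.1 CPM in BPA animals and 131 ± 3.77 CPM in controls (0.11 ± 0.053; edgeR, adjusted p = 0.955 for both). The list summed to 1066, 1144, 1162 and 1185 CPM in BPA animals, against 868, 1159, 1176 and 954 CPM in controls. Controls 2 and 3 lay within the BPA range and controls 1 and 4 below it. The median was 0.075 without control replicate 1 and 0.20 without control replicate 2. A lean of dentate genes was known from earlier results of these data and is no independent support. Niche signals and regulators were lower for 20 of 31 tested genes (median -0.039, 0 called). Among them Ntrk2, the receptor of brain-derived neurotrophic factor, averaged 832 ± 13.8 CPM in BPA animals and 880 ± 21.3 CPM in controls (-0.080 ± 0.038), and Vegfa, a vascular growth factor, 42.3 ± 6.16 CPM in BPA animals and 37.5 ± 1.94 CPM in controls (0.18 ± 0.086).

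**Figure D5:**
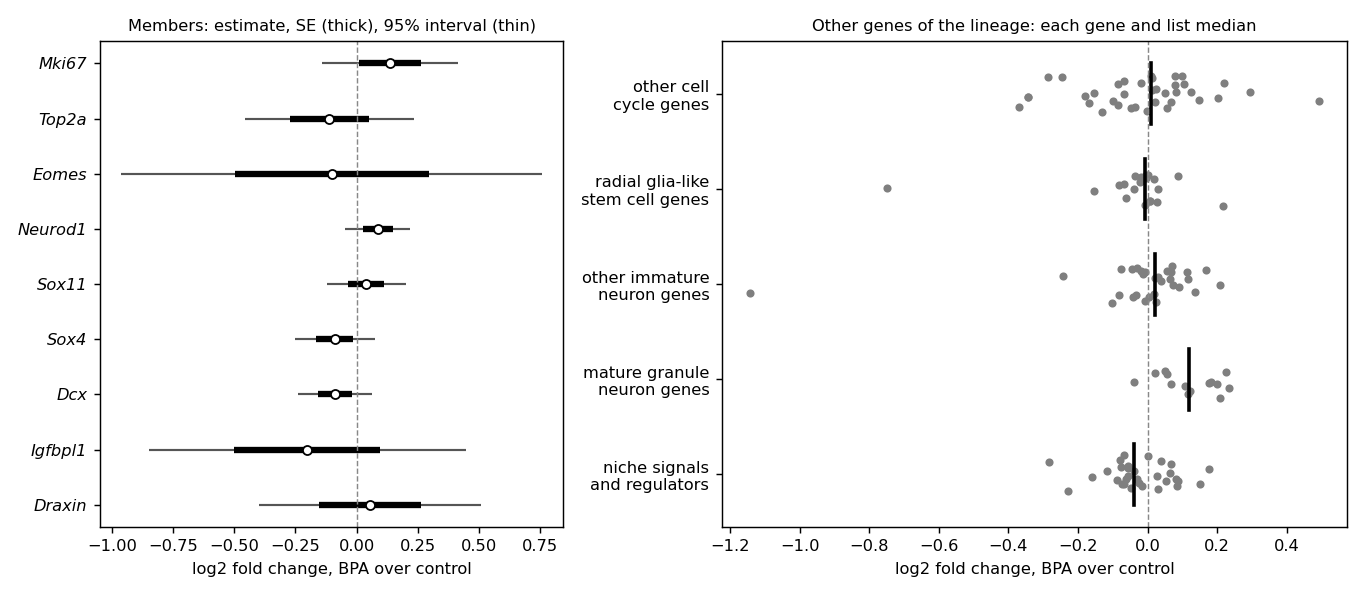
Left, log2 fold change of BPA over control for each marker (circle) with its SE (thick bar) and 95% interval (thin bar); every interval spans 0. Right, log2 fold change of each tested gene in 5 lists of the lineage (dots) with the list median (black line), which runs from -0.039 for niche signals to 0.12 for mature granule neuron genes.

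Other cells that can carry these markers were measured in the same libraries. Oligodendrocyte precursor genes, from cells that also divide, summed to 530 to 586 CPM in BPA libraries and 536 to 593 CPM in controls (14 tested, 5 higher and 9 lower, 0 called). Microglia genes summed to 267 to 291 CPM in BPA libraries and 271 to 286 CPM in controls (14 tested, 6 higher and 8 lower, 0 called). Genes of subventricular zone and olfactory neuroblasts, which also hold Dcx, summed to 229 to 240 CPM in BPA libraries. In controls they summed to 231 to 246 CPM (10 tested, 7 higher and 3 lower, 0 called). Etv1 alone averaged 126 CPM in BPA animals and 129 CPM in controls. Dlx1, Dlx5 and Dlx6 were in the interneuron list as well, so the sum is not particular to neuroblasts. Cajal-Retzius cell genes summed to 108 to 129 CPM in BPA libraries and 111 to 135 CPM in controls, with 1 of 5 tested genes higher. Reln alone averaged 60.5 CPM in BPA animals and 63.8 CPM in controls. It was in the interneuron list as well, so that sum is not particular to Cajal-Retzius cells. Lhx1 and Lhx5 of that list were too scarce to test. Choroid plexus genes were all estimated lower in BPA animals (14 of 14 tested, 0 called), but without control 2 it was 13 of 14 that were estimated higher, and the medians of their sum were 301 CPM in BPA libraries and 299.9 CPM in controls. Ependymal genes were estimated lower for 9 of 9 tested, and for 8 of 9 without control 2 (0 called in either).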

How the data were processed

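The authors deposited raw counts of reads by gene symbol for 8 libraries, as whole numbers without normalization. Trimmomatic 0.32, STAR 2.3.0e, featureCounts 1.5.0, DESeq2 and the mm10 build were used, per the submitters' processing notes, and per the file headers genes follow refGene. Whether reads were assigned by strand is not stated in any source used here. Columns were matched to animals by the library code in each title. Per the design text the animals are biological replicates, but their litters are not named, so p-values cover only the spread among these 8 animals. All 12 within-group pairs of libraries differed by more than sampling noise, with a chi-square of 10.2 to 24.8 per degree of freedom.

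Genes were filtered with filterByExpr (0.238 CPM in at least 4 libraries), scaled by TMM and tested with edgeR 4.0.16 (R 4.3.3; quasi-likelihood, 1 group term, two-sided, Benjamini-Hochberg adjustment at 0.05 over all genes tested). SEs were derived from the test statistic. The fits were tested on simulated data. DESeq2 1.42.0 and limma-voom (limma 3.58.1) were alternatives, beside other scalings, no filter, a replicate block, log2 library total as a covariate, thinned counts and each library left out. The sums per kilobase and the choroid plexus and ependymal counts without control 2 were added after the data were seen. Exon lengths, positions and overlaps come from the basic GENCODE M21 annotation, so per-kilobase levels may differ from refGene lengths. Members and lists were chosen with earlier results of these data known. Beside the 9 markers, the 2 genes with the smallest p in each list of the lineage are named, as none was called, and the 5 most like Dcx and Mki67. The scarce cell cycle genes were named after their counts were seen. A planned comparison of Sox4 and Sox11 proteins was not run. Lists of astrocytes (7 of 12 tested genes higher), interneurons (11 of 14), pyramidal neurons (4 of 13), endothelial cells and pericytes (7 of 13) and meningeal cells and fibroblasts (5 of 10) held 0 calls, and of the erythrocyte list 1 gene was tested. The astrocyte sum leaned the other way from its count of genes. It was 9308 to 10570 CPM in BPA libraries (median 9534) and 10491 to 12067 CPM in controls (median 10753).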

Additional observations from a re-analysis of the deposited data

Results flagged for a closer look

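Draxin stood at 1.07 CPM in control 2, apart from the other 3 controls at 0.642 to 0.678 CPM; the gap to the nearest of them was 0.916 of the range of the group. It rests on 40 reads in control 2, against 17 to 26 in the other controls. Chance sets apart about 1 in 20 groups of 4, and 34 groups were examined. Choroid plexus genes summed to 3165 CPM in the same library, and their part in the Draxin value was not tested.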

How the results depend on the processing

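None of the 9 markers passed an adjusted p of 0.05 under any of the 18 alternatives run for Mki67, Top2a, Neurod1, Sox11, Sox4, Dcx, Igfbpl1 and Draxin, or the 17 for Eomes, which failed the filter after thinning. DESeq2 called 7 of all genes, where every other setting called 0, with 698 genes at an unadjusted p under 0.05 in edgeR, 627 in DESeq2 and 704 in limma-voom. That edgeR count lay between 354 (BPA replicate 2 left out) and 1167 (control replicate 3 left out). Of 161 marker values, 149 kept their sign. Eomes turned to 0.034 with limma-voom, 0.16 with log2 library total as a covariate and 0.45 without control 2 and BPA 3 together. Igfbpl1 turned to 0.056 with that covariate and 0.11 without those 2 libraries, and Draxin to -0.046 with the covariate. Leaving out each library in turn, log2 fold changes ran from 0.030 to 0.21 for Mki67, -0.23 to -0.034 for Top2a, -0.38 to 0.44 for Eomes, 0.058 to 0.15 for Neurod1, -0.0058 to 0.12 for Sox11, -0.12 to -0.059 for Sox4, -0.13 to -0.049 for Dcx, -0.42 to 0.077 for Igfbpl1 and -0.027 to 0.28 for Draxin. The median log2 fold change of the 9 was -0.088 in the main fit and 0.089 without control 2 and BPA 3. Positive medians also came with limma-voom (0.034), with the depth covariate (0.053) and without control replicate 2 (0.074), while most settings gave a negative one. The cause of these shifts was not tested. Scaling moved the median of all genes by less than 0.1. Same-numbered animals did not deviate together (correlations -0.12, -0.37, -0.30 and 0.070, and 0 of 4 BPA and 0 of 4 control libraries correlated best with their own number); with the replicate number as a block, 0 genes were called and 498 had an unadjusted p under 0.05. Depth limits Eomes, Igfbpl1 and Draxin, at 6 to 42 reads per library.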
